A study of Mus musculus with 12 samples.

Results

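The insulin-like growth factor (IGF) ligands and the IGF-binding proteins are a family of 9 genes, Igf1, Igf2 and Igfbp1 to Igfbp7, that were chosen by gene name among 30119 named genes and transcripts on the array. All of their probes that measure transcripts were used, 15 in all, and 14 of these passed the filter on dim probes (signal well above background in 4 or more of the 12 samples). The samples were ovaries of 12 females of the inbred mouse strain C57BL/6J, taken at 2 months of age and hybridised to 6 Agilent arrays with 2 colours. Control mice (C1 to C4) ate a normal diet, early-life mice (E1 to E4) lacked dietary vitamin D in early life only, and peripubertal mice (P1 to P4) lacked it around puberty only. No group carries a mutant allele, and the labels give no other treatment.

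IGF1 and IGF2 are small secreted hormones that act through the IGF1 receptor, while the IGF2 receptor takes up IGF2 for degradation. The binding proteins IGFBP1 to IGFBP6 hold the ligands with high affinity, carry them or keep them from the receptor, and release them when proteases such as PAPP-A cut the binding protein. IGFBP7 binds the ligands only weakly and is known as a secreted protein of vessel walls and connective tissue. In the mouse ovary, Igf1 is made by granulosa cells, the cells that surround the egg, and makes them more responsive to follicle-stimulating hormone.

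The family was measured by 60-base probes, whose positions are on build mm9; gene models of that build were not used here, so exon or UTR is not given. The first 30 bases of the Igf1 and Igfbp2 probes are shown because these genes were read at more than 1 place, and the 5 places of Igf1 did not all vary alike. The Igf1 probes lie on chromosome 10 within 21185 bases, in this order along the + strand. Capitals mark bases that probes 2 and 3 share, in a common stretch of 40 bases.
Igf1 probe 1 (chr10:87378456-87378515): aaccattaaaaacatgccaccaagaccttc
Igf1 probe 2 (chr10:87393561-87393620): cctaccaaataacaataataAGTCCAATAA
Igf1 probe 3 (chr10:87393581-87393640): AGTCCAATAACATTACAAAGATGGGCATTT
Igf1 probe 4 (chr10:87395924-87395983): agaaatgtaaatggaataagaggtcagctg
Igf1 probe 5 (chr10:87399581-87399640): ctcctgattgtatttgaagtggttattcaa
Igfbp2 probe 1 (chr1:72898677-72898736, + strand): catctcttctacaacgagcagcaggagact
Igfbp2 probe 2 (chr1:72898813-72898872, + strand): aggagttcccagttttgacacatgtattta
Igf1 probe 1 was designed on another transcript of the gene than probes 2 to 5. Because probes bind with different strength, no level of a probe is set against that of another. The second Igfbp3 probe was not well above background in any sample and is not used further.

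The median probe signal of a sample was 147 to 331 intensity units over a background of 17.5 to 35, with 59.3% to 65.5% of probes clearly above it. Each array carried 2 samples of 1 group. One glass slide held the arrays of control and early-life samples and another those of peripubertal samples, so the peripubertal diet cannot be told apart from its slide. Groups are named here after the scanner files. However, in the value table that was also deposited, the 8 columns named control or early life each match a channel scanned under the other name (correlation 0.9998), so which naming is right is not settled here. If the table is right, every difference between early life and control below has the opposite sign, and the comparison of early life with peripubertal mice is that of control with peripubertal mice. Markers of the labelled tissue were present, with 8 of 8 granulosa cell and 8 of 8 oocyte markers measured. Of 7 pituitary markers, Gh, Prl, Tshb and Cga were not well above background in any sample, Pou1f1 was in 2, and Pomc and Lhb were in all 12. Of 4 liver markers, Alb and Ttr were not in any sample, and Apoa1 and Serpina1a were in all 12.

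Igfbp7 was the family member that passed the test, and it did so in 1 of 3 comparisons. Its log2 intensity was lowest in the 4 early-life ovaries, about 2.12-fold under the peripubertal level, and the remaining 8 members did not pass in any comparison. Early-life samples gave 9.35, 9.37, 9.19 and 9.27 (E1 to E4), control samples 10.15, 9.996, 10.04 and 9.75 (C1 to C4), and peripubertal samples 10.39, 10.93, 10.19 and 9.99 (P1 to P4). All early-life values lay under all others, while control and peripubertal values overlapped.

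**Figure D1:**
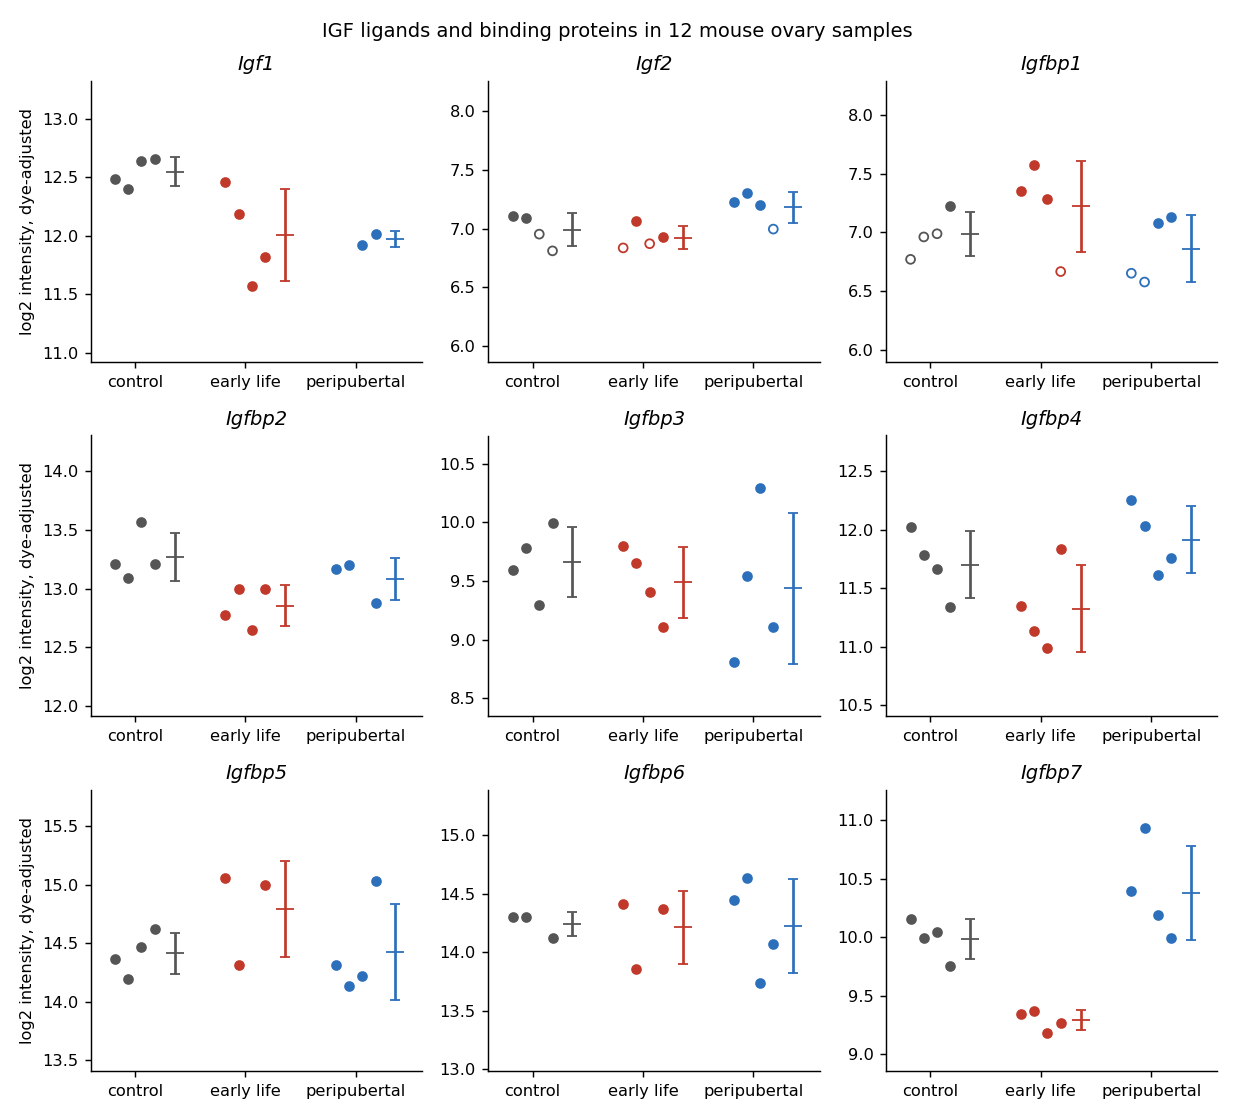
Log2 intensity, with the dye effect removed, of the 9 genes in each ovary sample (points, in the order of replicate numbers), with the group mean and SD beside them; filled points were well above background and open points were not. Every panel spans the same range of log2 units. The 4 early-life points of Igfbp7 lie between 9.19 and 9.37, under all control and peripubertal points.

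The group means of Igfbp7 were 9.29 ± 0.085 (SD, n = 4) in early life, 9.99 ± 0.17 (SD, n = 4) in control and 10.38 ± 0.40 (SD, n = 4) in peripubertal ovaries. The early-life mean was lower than the peripubertal mean by a log2 difference of -1.08 ± 0.204 (SE; 95% interval -1.54 to -0.63; limma, adjusted p = 0.036 over 18559 genes and transcripts). This made 1 of 9 members called in this comparison, against 2.63% of all genes called and 2.09% called lower in early life. Early life against control gave -0.69 ± 0.204 (SE; 95% interval -1.15 to -0.24; adjusted p = 0.235), which did not pass although the groups did not overlap. Peripubertal against control gave 0.39 ± 0.204 (SE; 95% interval -0.06 to 0.85; adjusted p = 0.507). With the control and early-life names exchanged, the difference of 1.08 is that of peripubertal over control mice. The call ended when C2, C3, E1, E3, E4 or P1 was left out (adjusted p 0.0285 to 0.117 over the 12 samples left out in turn, difference -1.20 to -0.89) and without scaling between arrays (-0.97, adjusted p = 0.754).

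Igfbp7 varied over a 3.35-fold range among the 12 samples, with an SD of 0.523 log2 units that exceeds that of 90.4% of genes. Its level followed the summed level of macrophage markers (Adgre1, Cd68, Csf1r, C1qa, C1qb, C1qc, Mrc1 and Lyz2, 8 of 8 measured). The macrophage score, the mean deviation of these genes from their average over the samples in log2 units, was -0.78 to -0.49 in early-life, -0.35 to 0.49 in control and 0.087 to 0.91 in peripubertal ovaries. Stroma markers (6 of 8 measured) scored -0.96 to -0.41 in early life, -0.64 to 0.54 in control and -0.12 to 0.97 in peripubertal ovaries. Smooth muscle markers (7 of 8 measured) scored -0.52 to -0.19, -0.36 to 0.62 and -0.15 to 0.89 in the same order, and endothelial markers (10 of 10) -0.27 to -0.047, -0.043 to 0.15 and -0.051 to 0.35. Oviduct epithelium markers (9 of 9 measured) ran the other way, at -0.52 to 2.89 in early life, -1.34 to 0.93 in control and -1.81 to -1.01 in peripubertal ovaries. The part of these cell types in the Igfbp7 difference was not tested, and in whole ovaries fewer cells of a type and less RNA per cell cannot be told apart.

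The relation of members to 12 cell type marker scores was computed over the samples for 108 relations, a comparison chosen after the values were seen, and 10 relations passed (permutation p, Benjamini-Hochberg adjusted over the 108). How many of all genes follow the same scores was not computed, so this count is not shown to be particular to the family. The samples are not fully independent, since pairs of them share an array. The permutations moved single samples as if they were independent, so the permutation p values can be too small. Igfbp7 and the macrophage score had a Pearson r of 0.949 and a Spearman rho of 0.881 over 12 samples (permutation p = 2e-05 and 0.0003, adjusted p = 0.00216 and 0.0106). Pearson r was 0.923 without the 2 samples farthest from the median score, 0.94 among the 8 samples of the first slide and 0.795 with the group means removed. Exchanging the control and early-life names keeps the same samples together in each group, so it leaves all of these values unchanged. Igfbp7 also followed the stroma score (r = 0.889, rho = 0.846, permutation p = 0.00012 and 0.00102, adjusted p = 0.00486 and 0.0133) and the smooth muscle score (r = 0.871, rho = 0.86, permutation p = 0.00016 and 0.0006, adjusted p = 0.00486 and 0.0108). Both held without the 2 farthest samples (r = 0.811 and 0.819) and on the first slide (r = 0.877 and 0.859). The macrophage, stroma and smooth muscle scores were all highest in C1, C2, P1 and P2. These relations are therefore not independent of each other. C1 and C2 shared an array, as did P1 and P2, so the highest scores fell on both samples of those arrays. With the endothelium score r was 0.66 and rho 0.664 (adjusted p = 0.109 and 0.132), and r was -0.066 with the group means removed. With the oviduct epithelium score these values were -0.709 and -0.776 (adjusted p = 0.0698 and 0.0346), and -0.004.

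**Figure D2:**
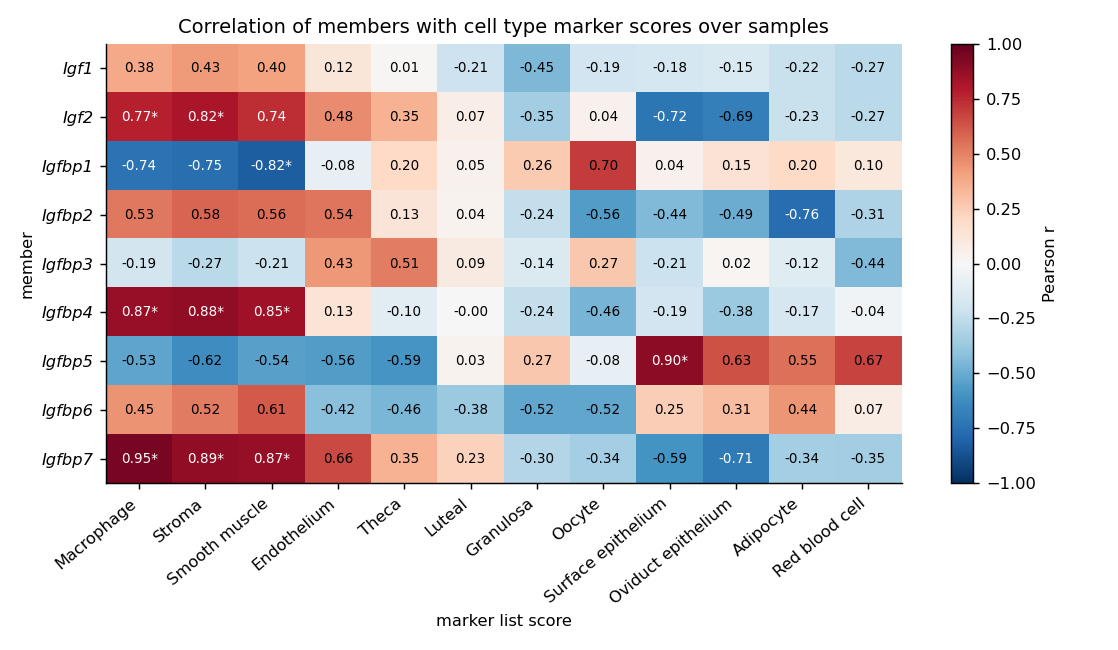
Pearson r over 10 to 12 samples between each family member (rows) and the mean level of each marker list (columns); asterisks mark relations with an adjusted p under 0.05 over the 108 relations. Igfbp7, Igfbp4 and Igf2 are high with the macrophage and stroma scores, and Igfbp5 with the surface epithelium score (r = 0.897).

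Igfbp4, whose protein is an inhibitory binding protein that PAPP-A cuts in follicles, followed the same scores. Its values were 12.02, 11.79, 11.67 and 11.34 in C1 to C4, 11.35, 11.14, 10.99 and 11.83 in E1 to E4, and 12.25, 12.04, 11.61 and 11.76 in P1 to P4. The early-life and peripubertal groups overlapped through E4 alone, the early-life sample with the highest value. Early life differed from peripubertal ovaries by -0.59 ± 0.26 (SE; unadjusted p = 0.0467, adjusted p = 0.202), from control by -0.38 ± 0.26 (adjusted p = 0.514), and peripubertal from control ovaries by 0.21 ± 0.26 (adjusted p = 0.798). The dye effect of this probe was the largest of the family's main probes, at -0.54 log2 units for Cy5 over Cy3, and was removed from these values. Over samples, Igfbp4 had r = 0.884 and rho = 0.881 with the stroma score (permutation p = 0.00018 and 0.00038, adjusted p = 0.00486 and 0.0106), and r = 0.83 without the 2 farthest samples and 0.829 on the first slide. With the macrophage score r was 0.872 and rho 0.874 (permutation p = 0.00037 and 0.00042, adjusted p = 0.00663 and 0.0106), and with the smooth muscle score r was 0.851 and rho 0.895 (permutation p = 0.00042 and 0.00014, adjusted p = 0.00663 and 0.0106). Without the 2 farthest samples these were 0.834 and 0.9, and on the first slide 0.825 and 0.886. As for Igfbp7, the relations to these scores are not independent of each other.

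Igfbp5, the most conserved of the binding proteins and one that attaches to extracellular matrix, followed a different marker score. It measured 14.37, 14.19, 14.47 and 14.62 in C1 to C4, 15.06, 14.31 and 15.00 in E1, E2 and E4, and 14.32, 14.13, 14.22 and 15.03 in P1 to P4. The spot of E3 was set aside as an outlier by the scanner software. The 3 highest of the 11 samples with a value, E1, P4 and E4, came from both deficient groups, and no comparison passed (adjusted p 0.476 to 0.992). With outlier spots kept, E3 was the highest sample, at 15.19. Igfbp5 rose and fell with the surface epithelium score (Krt7, Krt8, Krt18, Krt19, Upk1b, Upk3b, Msln and Lgals7, 8 of 8 measured), with r = 0.897 and rho = 0.891 over 11 samples (permutation p = 0.00043 and 0.00049, adjusted p = 0.00663 and 0.0106). Pearson r was 0.803 without the 2 farthest samples, 0.92 among 7 samples of the first slide and 0.881 with the group means removed. The score is not of 1 cell type alone, since Krt8 is also in the oviduct epithelium list. With the oviduct epithelium score r was 0.634 (permutation, adjusted p = 0.159), 0.09 without the 2 farthest samples and 0.889 on the first slide. With the red blood cell score these values were 0.674 (adjusted p = 0.137), 0.656 and 0.822. The 3 genes most like Igfbp5 over the samples, among 12198 genes with no missing value, were the claudin Cldn15 (r = 0.98), the uroplakin Upk3b (r = 0.97), which is itself in the marker list, and the homeobox gene Emx2 (r = 0.95).

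**Figure D3:**
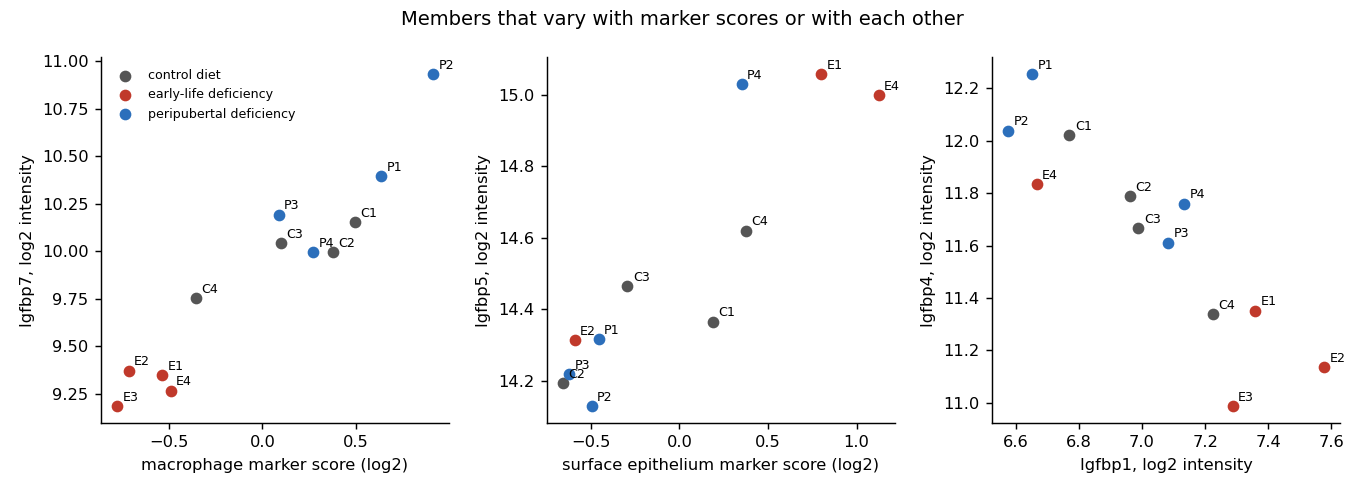
Igfbp7 against the macrophage score, Igfbp5 against the surface epithelium score and Igfbp4 against Igfbp1 in each ovary sample, all in log2 units and coloured by group. Igfbp7 and Igfbp5 rise with their scores (r = 0.949 and 0.897), and Igfbp4 falls as Igfbp1 rises (r = -0.895).

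Among the 36 pairs of members, 18 correlations were positive and 18 negative, and 2 pairs passed (Benjamini-Hochberg over the 36 pairs). The share of passing pairs among other genes was not computed. Igfbp1, a binding protein best known from liver, and Igfbp4 were opposed, with r = -0.895 and rho = -0.93 over 12 samples (permutation p = 0.0001 and 5e-05, adjusted p = 0.0036 and 0.0018). Pearson r stayed at -0.871 without the 2 farthest samples, -0.887 on the first slide and -0.869 with the group means removed. Igfbp1 was well above background in 6 of 12 samples, and its levels of 6.77, 6.96, 6.99 and 7.22 (C1 to C4), 7.36, 7.58, 7.29 and 6.67 (E1 to E4) and 6.65, 6.58, 7.08 and 7.13 (P1 to P4) lie near that limit. Its r with Igfbp4 was -0.895 to -0.628 under 5 other settings of background, scaling and outlier spots. It opposed the smooth muscle score too (r = -0.825, rho = -0.853, permutation p = 0.00089 and 0.00081, adjusted p = 0.012 and 0.0125; r = -0.778 without the 2 farthest samples and -0.733 on the first slide). With the stroma and macrophage scores, which Igfbp4 also followed, r was -0.752 and -0.742 (permutation, adjusted p = 0.0556 and 0.0591). Spearman rho was -0.818 and -0.811 there (permutation, adjusted p = 0.0184 and 0.0211). The opposition of Igfbp1 and Igfbp4 is therefore not independent of these scores. No group comparison of Igfbp1 passed (adjusted p 0.368 to 0.876).

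Igf2, the fetal growth factor, was well above background in 7 of 12 samples. Its range among the samples was 1.41-fold, and 2.76-fold with the software's processed signal. It measured 7.10, 7.09, 6.95 and 6.81 in C1 to C4, 6.83, 7.06, 6.87 and 6.93 in E1 to E4, and 7.23, 7.30, 7.20 and 6.99 in P1 to P4. Of the peripubertal samples 3 lay above all others, but P4 overlapped, and early life differed from peripubertal ovaries by -0.26 ± 0.113 (SE; unadjusted p = 0.046, adjusted p = 0.201). The other comparisons of Igf2 gave adjusted p values of 0.559 and 0.796, and its early-life difference from control changed sign without scaling between arrays (-0.066 and 0.20). The second pair that passed was Igf2 with Igfbp7 (r = 0.804, rho = 0.846, permutation p = 0.00175 and 0.00098, adjusted p = 0.0315 and 0.0176). It stood at r = 0.789 without the 2 farthest samples, 0.51 on the first slide and 0.364 to 0.804 under the 5 other settings. Igf2 with the stroma score gave r = 0.816 and rho = 0.839 (permutation p = 0.00183 and 0.00111, adjusted p = 0.022 and 0.0133) and with the macrophage score r = 0.774 and rho = 0.748 (permutation p = 0.00434 and 0.00707, adjusted p = 0.0469 and 0.0509). Without the 2 farthest samples these were 0.658 and 0.646, on the first slide 0.772 and 0.611, and under other settings they fell to 0.244 and 0.287.

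Igf1 did not pass in any comparison, and its probes did not give 1 picture. Probe 3, the brightest, measured 12.48, 12.40, 12.64 and 12.66 in C1 to C4, 12.46, 12.19, 11.57 and 11.82 in E1 to E4, and 11.92 and 12.02 in P3 and P4, while the spots of P1 and P2 were set aside as outliers. Of the early-life samples 3 lay under all controls. The early-life difference from control was -0.54 ± 0.199 (SE; unadjusted p = 0.0266, adjusted p = 0.313). For probes 1, 2, 4 and 5 it was -0.18, -0.21, -0.32 and -0.45 (adjusted p 0.336 to 0.654), so all 5 probes gave a negative value, and every early-life value lay under every control value in probe 1 alone.

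For peripubertal against control ovaries, the Igf1 probes pointed both ways. Probe 3 gave -0.58 ± 0.244 (SE, 2 against 4 samples; adjusted p = 0.426), with both values under all controls, and probe 2, which overlaps it and also lacks P1 and P2, gave -0.48 (adjusted p = 0.532). Probes 4 and 5, with all 4 peripubertal samples, gave -0.069 and -0.24 (adjusted p = 0.927 and 0.677), and probe 1 gave 0.11 (adjusted p = 0.651), with all 4 peripubertal values above all controls. With the outlier spots kept, probe 3 gave -0.63 (adjusted p = 0.255). Early life against peripubertal ovaries gave 0.038 by probe 3 (adjusted p = 0.943) and -0.29 ± 0.0819 by probe 1 (SE; adjusted p = 0.0822), where the groups did not overlap. Between probes, r over the samples ran from 0.236 (probes 1 and 2) to 0.91 (probes 4 and 5), given as a description of 10 to 12 samples.

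**Figure D4:**
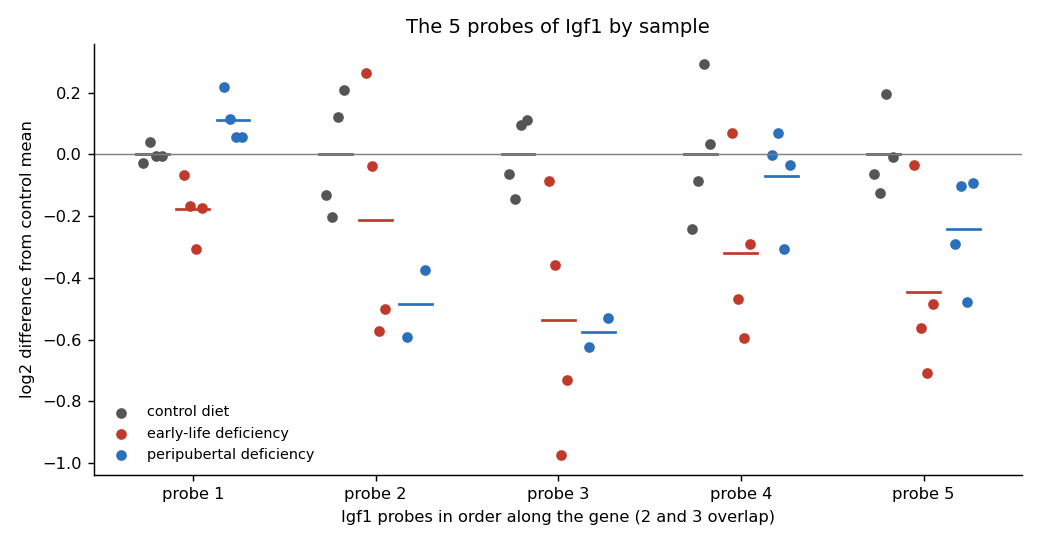
Log2 difference of each sample from the control mean for the 5 Igf1 probes in their order along the gene, with group means as bars. Early-life means lie under 0 for all 5 probes, and peripubertal means lie under 0 for probes 2 to 5 and at 0.11 for probe 1.

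Igfbp2, a binding protein that favours IGF2, was lower in every early-life than every control sample at both of its probes, without passing the test. Probe 2, the brighter, gave 13.21, 13.09, 13.57 and 13.21 in C1 to C4, 12.78, 13.00, 12.64 and 13.00 in E1 to E4, and 13.17, 13.20 and 12.87 in P1, P2 and P4, where P3 was an outlier spot. The difference was -0.41 ± 0.165 (SE; 95% interval -0.79 to -0.043; unadjusted p = 0.0326, adjusted p = 0.326), and probe 1 gave -0.47 ± 0.212 (adjusted p = 0.36). The peripubertal mean of probe 2 lay between, at -0.21 ± 0.175 from control (adjusted p = 0.704). The single samples did not all lie between. At probe 1, where P3 has a value, peripubertal samples ran from 11.94 (P3) to 12.75, and early-life samples from 12.06 to 12.36. The probes followed each other closely (r = 0.965 over 11 samples). The adipocyte score (6 of 7 markers measured) was 0.087 to 3.10 in early-life, -1.97 to -0.41 in control and -1.19 to 0.62 in peripubertal ovaries. It was opposed to Igfbp2 at r = -0.764 and rho = -0.836 (permutation p = 0.0103 and 0.00235, adjusted p = 0.0698 and 0.0211); r was -0.606 without the 2 farthest samples and -0.799 on the first slide. The part of fat tissue in the Igfbp2 values was not tested.

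Igfbp3 and Igfbp6 did not pass in any comparison either. Igfbp3, the main carrier of IGF in blood, measured 9.59, 9.78, 9.29 and 9.997 in C1 to C4, 9.80, 9.65, 9.40 and 9.11 in E1 to E4, and 8.81, 9.54, 10.29 and 9.10 in P1 to P4. The peripubertal group held both its lowest and its highest sample, P1 and P3, and adjusted p was 0.845 to 0.95. Igfbp6, which prefers IGF2, measured 14.30, 14.31 and 14.12 in C1, C2 and C4, 14.41, 13.85 and 14.37 in E1, E2 and E4, and 14.45, 14.64, 13.74 and 14.07 in P1 to P4. The spots of C3 and E3 were outliers, and the 3 differences lay between -0.0095 and 0.0043 with standard errors of 0.258 to 0.272, so that 95% intervals reach from -0.63 to 0.62.

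Over the 9 members, the median log2 difference of early life from control was -0.18, against -0.024 over all genes, with 7 values under 0. None was called (limma; 3 at an unadjusted p under 0.05, Igf1, Igfbp2 and Igfbp7), where 0.0216% of all genes were called and 13.9% had an unadjusted p under 0.05. The groups did not overlap for 2 members, Igfbp2 and Igfbp7, both lower in early life, against 17.1% of all genes, or 11.7% that were lower in early life. For peripubertal against control the median was -0.0095 against 0.0088, none was called (1 at an unadjusted p under 0.05, Igf1), and the groups did not overlap for 1 member, which has values in 2 peripubertal samples. Over all genes 0.269% were called there, 11.4% had an unadjusted p under 0.05 and 16.1% did not overlap (7.35% lower in peripubertal ovaries). For early life against peripubertal the median was 0.0043 against -0.034, 3 members had an unadjusted p under 0.05 (Igf2, Igfbp4 and Igfbp7, against 23.9% of genes), and the groups did not overlap for 1 member against 24.4% of genes (16.5% lower in early life). All 3 comparisons share samples, so their values are not independent of each other.

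**Figure D5:**
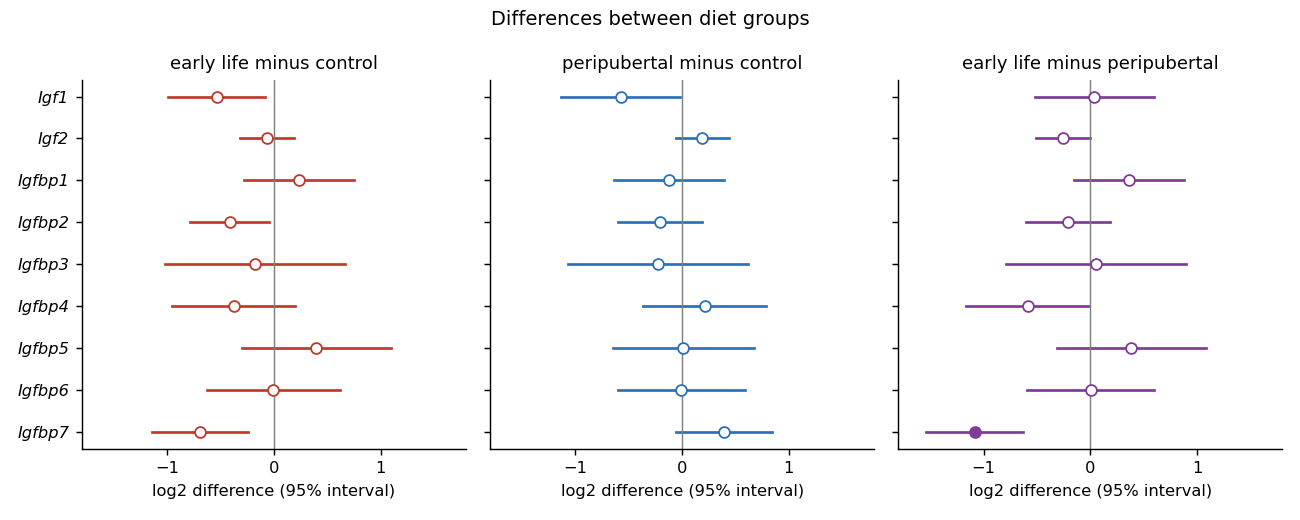
Log2 differences between diet groups for the 9 members, with 95% intervals from the limma fit; the filled point has an adjusted p under 0.05. The point is Igfbp7 in early life minus peripubertal ovaries, at -1.08.

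Of 36 other genes of the IGF pathway, 31 could be tested: receptors, proteases and their inhibitors, adaptors and kinases, growth hormone signalling, Igf2 mRNA-binding proteins and H19, the non-coding gene next to Igf2. Their median log2 differences were 0.013, 0.061 and 0.0012 in the 3 comparisons. Against control, 0 were called for early life and 0 for peripubertal ovaries (limma), where 0.0216% and 0.269% of all genes were called. At an unadjusted p under 0.05 there were 5 and 6 of 31, against 13.9% and 11.4% of all genes. The groups did not overlap for 5 and 9 of 31, against 17.1% and 16.1% of all genes. Early-life and peripubertal groups did not overlap for 4 of 31, against 24.4% of all genes. For early life against peripubertal ovaries 1 was called, with a higher level in early life, against 2.63% of all genes, and 5 of 31 had an unadjusted p under 0.05, against 23.9% of all genes. That gene was Igf2r, the receptor that clears IGF2, at 12.10, 11.87, 11.98 and 12.01 in E1 to E4, 11.57, 11.45, 11.43 and 11.50 in P1 to P4, and 11.71, 11.98, 11.76 and 11.73 in C1 to C4. All early-life values lay above all peripubertal values, by 0.51 ± 0.103 (SE; 95% interval 0.28 to 0.73; adjusted p = 0.0401), while early-life and control values overlapped. All peripubertal values also lay under all controls, at -0.31 ± 0.103 (SE; adjusted p = 0.294). The call ended in 8 of the 12 fits with 1 sample left out (adjusted p 0.0257 to 0.131; without C3, E1, E3, E4, P1, P2, P3 or P4) and without scaling between arrays (0.56, adjusted p = 0.754).

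Irs1, an adaptor that links the IGF1 and insulin receptors to PI3-kinase, had the smallest p of the pathway in both comparisons with control, which share the control samples. It measured 12.06, 11.96, 11.92 and 11.66 in C1 to C4, 12.76, 12.51, 12.59 and 12.72 in E1 to E4, and 12.65, 12.41 and 12.88 in P2, P3 and P4, with P1 an outlier spot. All deficient samples lay above all controls. The difference was 0.75 ± 0.159 for early life (adjusted p = 0.171) and 0.75 ± 0.168 for peripubertal ovaries (adjusted p = 0.166), so neither passed. With the mean of the Irs1 probes the peripubertal value turned to -0.32. Pik3r1, the regulatory subunit of PI3-kinase, was at 1.20 ± 0.305 (adjusted p = 0.214) and 0.93 ± 0.324 (adjusted p = 0.323), again with no overlap with control. Of all genes, 17.1% and 16.1% did not overlap in these comparisons. The catalytic subunit Pik3ca differed by 0.30 ± 0.0912 in peripubertal against control ovaries (adjusted p = 0.275) and by -0.39 ± 0.112 in early life against peripubertal ovaries, with 2 early-life values (adjusted p = 0.0954).

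In the growth hormone branch, which drives Igf1 in liver, the receptor Ghr was at 0.71 ± 0.288 in early life over control (4 against 2 samples, adjusted p = 0.344; 0.37 without E1 and up to 0.91 with another sample left out) and its kinase Jak2 at 0.36 ± 0.144 (adjusted p = 0.322). Among proteases and inhibitors, Adam12, which can cut binding proteins, was at -0.27 ± 0.0805 in early life against peripubertal ovaries (adjusted p = 0.0933; -0.42 to -0.14 under other processing), and Stc1, an inhibitor of PAPP-A, at -1.43 ± 0.517 (adjusted p = 0.141; -2.19 to -1.34 under other processing). Igf1r, the receptor for both ligands, was well above background in all 12 samples but not tested, since outlier spots left 1 control and 2 early-life values. Its normalised log2 levels were 12.65 in C2, 12.81 and 12.86 in E1 and E2, and 12.23, 12.48, 12.52 and 12.76 in P1 to P4.

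Apart from Igfbp5, the genes whose pattern over the samples was most like a member are given as a description, with no test. For Igfbp7 they were Gpr137b-ps (r = 0.985), the calcium pump gene Atp2b4 (r = 0.979) and Fbln7 (r = 0.974), and for Igfbp4 1700001K19Rik (r = 0.966), Ccdc57 (r = 0.95) and Synj2 (r = 0.949). Igfbp6 was most like Myo1c (r = 0.971), Slc24a3 (r = 0.954) and Xdh (r = 0.949), and Igfbp2 most like Mettl21a (r = 0.952), Phykpl (r = 0.938) and Ndufaf8 (r = 0.937). The closest were Zfp438 for Igf1 (r = 0.945), Tm6sf1 for Igf2 (r = 0.942), Spag4 for Igfbp1 (r = 0.946) and Gnl3l for Igfbp3 (r = 0.909). These values are the highest among 12197 or 12198 genes over 10 to 12 samples.

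The vitamin D receptor binds direct repeats of a hexamer, as a background fact, so the promoters of the family were searched for such repeats. The RefSeq promoter table (build GRCm38.p6, 300 bases around each start, most of them upstream) held 13 promoters of the 9 genes. None of the 13 held a pair of the hexamers AGGTCA or AGTTCA or GGGTCA or GGTTCA in the same orientation with 3 bases between them, on either strand, against 0.0396% of all 32851 promoters. At least 1 such hexamer, on either strand, stood in 3 of 13 promoters (23.1%), those of Igf1, Igfbp6 and 1 of 4 of Igf2, against 43.7% of all promoters. These matches describe letters in this window and nothing beyond it.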

How the data were processed

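Per the labels, total RNA from the ovaries of 4 females of each diet group was amplified and labelled with Cy3 (odd replicate numbers) or Cy5 (even numbers). The deposited scanner files give each spot's mean signal, its local background and a processed signal as intensity; per the file headers they come from Agilent Feature Extraction 11.0.1.1. A value table was also deposited, in log2 units with a median of 0 in every column; how the authors made it is not given in the sources used here. Its 4 peripubertal columns match no array (best correlation 0.874 to 0.897), and it served as an alternative.

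In R 4.3.3, limma 3.58.1 was used for normexp (offset 50), loess within and Aquantile scaling between arrays, and each channel was kept as log2 values. Outlier spots (3.16% of values) were left out. A probe needed a signal well above background in 4 or more of 12 samples and 2 or more values per group, which kept 23791 probes, and the brightest stood for each of 18559 genes. All members' probes were fitted too. One model compared the 3 groups, with the dye as a covariate and a random block for the array (within-array correlation 0.288). Calls were made at a Benjamini-Hochberg adjusted p under 0.05, counted over every gene tested. The fit was also run on data simulated from the fitted model itself, which cannot test how well that model describes these arrays. Sample values of members and pathway genes have the fitted dye effect removed, except those of Igf1r and those of the deposited value table. Correlations over samples had 100000 permutations (SciPy 1.17.1), two-sided, and used marker lists with at least 3 measured genes. The ratio of signal to background ran from 6.85 to 9.49; precision is limited by having 6 arrays.

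The members, the pathway and marker lists and the tests were chosen with earlier results of these data known. Named genes are all members with every probe, the 4 pathway genes with the smallest p of each comparison, Igf1r as an untested receptor, and up to 3 genes most like a member. The alternatives changed the background correction, scaling, filters, probe choice, outlier spots, naming of the arrays and the samples included. The sequence of the Igfbp7 probe is not reported here.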

Additional observations from a re-analysis of the deposited data

Results flagged for a closer look

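Igfbp7 and Igf2r were marked because the early-life and peripubertal groups differed in the comparison given above. In the difference of the 2 effects against control the control cancels, so this is that same comparison and no separate test. For Igfbp7 the early-life effect minus the peripubertal effect was -1.08 (limma, adjusted p = 0.036), and for Igf2r it was 0.51 (adjusted p = 0.0401). Against control neither gene passed (limma, early life and peripubertal adjusted p 0.235 and 0.507 for Igfbp7, 0.414 and 0.294 for Igf2r). For both genes the early-life samples lay apart from the peripubertal samples, which were on another slide, so slide and diet cannot be told apart there.

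Igfbp3 was marked in data outside the main measurement. In the 4 columns of the deposited value table named peripubertal, which match no array, its log2 value was 4.02 ± 0.38 (SD, n = 4), all above the control columns (0.23 to 1.84) and the early-life columns (0.96 to 1.78). In none of 36 groups of 4 values of a member probe did the gap of the highest or lowest sample, divided by the range of the group, exceed Dixon's 95% critical value of 0.829.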

How the results depend on the processing

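Over 12 samples left out in turn, the members called for early life against peripubertal numbered 0 to 1. Without scaling between arrays they numbered 0, and that setting moved the median of all genes to 0.11 for early life against control. With control and early-life names swapped, 1 member was called for peripubertal against control and 0 for early life against peripubertal. From the deposited value table, 1, 7 and 8 members were called for early life against control, peripubertal against control and early life against peripubertal; over all genes 1.25%, 64.9% and 67.4% were called there, and its peripubertal columns match no array. In early life against control all 9 members changed sign there, with Igfbp7 called (0.81). The table's control and early-life columns each match a channel scanned under the other name, so these signs turn with the naming. Among values called under that table, the sign turned for Igfbp1, Igfbp3, Igfbp4, Igfbp7, Irs1 and Pik3r1 in peripubertal against control (1.63, 2.91, -1.60, -1.98, -1.95 and -1.97), and for Igfbp1, Igfbp2, Igfbp3, Igfbp4, Igfbp5, Igfbp7, Pik3ca and Stc1 in early life against peripubertal (-1.97, 2.40, -2.73, 2.09, -0.51, 2.80, 0.47 and 3.72). Irs1 in peripubertal against control was also at -0.32 with the mean of its probes. The pairs of members that passed numbered 1 with no background subtraction, with the software's processed signal and with quantile scaling, 0 without scaling between arrays, 4 with outlier spots kept and 1 to 4 with 1 sample left out; these settings were added after seeing the data. Beyond the exchange of names, the causes were not tested. Of all alternatives for single members, 622 kept direction and side of the threshold, 64 changed sign with no call on either side, 8 lost and 6 gained a call, and 11 changed sign with a call. All of these 11 came from the deposited value table. The counts also include the fit with control and early-life names swapped, so they do not measure the effect of processing alone.

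The replicate number as a block left 1 member called in early life against peripubertal (Igfbp7, -1.08, adjusted p = 0.0318) and 0 in the others; same-numbered samples of different groups correlated at -0.35 to 0.54, so the numbers are not shown to pair samples. Over all genes, calls numbered 0 to 231, 0 to 12015 and 1 to 12485 in the 3 comparisons under other processing (4, 50 and 489 as reported) and 0 to 88, 0 to 29 and 2 to 1572 with 1 sample left out. The highest counts under other processing, 231, 12015 and 12485, were those of the deposited value table, whose peripubertal columns match no array. Igf2 and Igfbp1, near background, are limited by signal.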

Other observations

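The 4 value-table columns named peripubertal differed from the scanner files for most of the family. The columns named control, given beside them, each match a channel scanned as early life. No dye effect was removed from these means and SDs. In those columns Igf1 was at -0.61 ± 0.73 (SD, n = 4) against 3.68 ± 0.75 (SD, n = 4) in the control columns, and Igfbp6 at 1.80 ± 0.50 against 5.87 ± 0.75 (SD, n = 4 each). Igfbp2 stood at 2.67 ± 0.49 against 4.50 ± 0.59 and Igfbp7 at -1.08 ± 0.88 against 0.90 ± 0.77 (SD, n = 4 each). Igfbp3 and Igfbp1 went the other way, Igfbp3 at 4.02 against 1.11 and Igfbp1 at -0.062 against -1.70. Igf2 and Igfbp5 were at -1.95 and 6.74 against -2.13 and 6.56. In the scanner files the same genes differed between peripubertal and control ovaries by -0.58 to 0.39 on the log2 scale. For early life minus peripubertal ovaries the scanner differences were -1.08 to 0.39. Which tissue these columns come from is not stated in the sources used here.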
